A study of Mus musculus with 4 samples.

Results

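The activin and follistatin genes of the embryonic mouse cochlea are described here in ducts that lost *Tbx2* from *Sox2*-expressing cells. The group held 7 genes, taken by symbol from the gene names that the array files give for their probes, out of 29924 gene names on the array. They were the ligand subunits *Inhba* and *Inhbb*, the antagonists *Fst* and *Fstl3*, the type I receptor *Acvr1b* and the type II receptors *Acvr2a* and *Acvr2b*. Together they were represented by 10 of 39429 probes, and all 10 were well above background in each of 8 measurements, so that 7 of 7 genes entered the test among 21042 genes. Each of 4 two-colour arrays compared RNA from 1 pool of *Sox2-Tbx2LOF* cochlear ducts with RNA from 1 control pool. The mutant pools are labelled Sox2(creERT2);Tbx2(fl/fl) and the control pools Tbx2(fl/n.d.), the second allele of the controls being undetermined in the labels, while the methods describe the controls as negative for cre. The dams of both groups received 4 mg tamoxifen by mouth at E12.5, the ducts were dissected at E14.5, and the strain was NMRI throughout. Mutants thus differed from controls in the *Sox2* driver allele as well as in *Tbx2*, and effects of these alleles cannot be told apart here. The methods also describe *Sox2-Tbx2LOF* mice with the reporter allele R26 mTmG, which the labels do not mention, so that its presence in these pools is not settled. Arrays 1 and 2 carried female and arrays 3 and 4 male pools, and mutant RNA was in Cy5 on arrays 1 and 3 and in Cy3 on arrays 2 and 4. Recombination was driven from the *Sox2* locus and thus limited to cells expressing *Sox2* at the time of tamoxifen, whereas the RNA came from whole ducts after removal of the spiral ganglion. In such bulk tissue, fewer cells of a type and less RNA per cell cannot be told apart.

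Activins are dimers of inhibin beta subunits, encoded among others by *Inhba* and *Inhbb*. They bind the type II receptors ACVR2A and ACVR2B, which recruit and phosphorylate a type I receptor such as ACVR1B, and this in turn phosphorylates SMAD2 and SMAD3. Follistatin, the product of *Fst*, and the related FSTL3 bind activins outside the cell and keep them from their receptors. In the developing cochlea, activin and follistatin are known as counteracting signals in the timing of sensory differentiation.

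The probes of 4 of these genes are shown because the comparisons below rest on what they captured. Each line gives the last 30 bases of the probe, 5′ to 3′ in the sense of the transcript, with its position in build mm9, and capitals mark the hexamer AATAAA, the most common polyadenylation signal. The exon or intron of these positions was not annotated in the files used here.

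*Fst* (probe A_55_P2394308, chr13:115243565-115243624, minus strand): ggcaaaacgaaacacaacaaAATAAAtaat

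*Inhba* (probe A_51_P239750, chr13:16118634-16118693, plus strand): tcagcttcaaggacattggctggaatgact

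*Inhbb* (probe A_55_P2096422, chr1:121312160-121312219, minus strand): gtcctcacctttagtttatttAATAAAtcc

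*Acvr2a* (brighter probe A_66_P113760, chr2:48758429-48758488, plus strand): aacatcatttacctcagatattcaaccagc

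*Acvr2a* (dimmer probe A_52_P664656, chr2:48757324-48757383, plus strand): aatacgactgttcggcttaagaaagcacta

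The hexamer was searched on the sense strand only, over the whole probe. It was present in 2 of the 10 probes, those of *Fst* and *Inhbb*, and in 12.6% of all 39429 probes of the array. A match describes the letters of the probe and not a processing site in use. Both *Acvr2a* probes lie on the same strand of chromosome 2 without overlap, so that they measured different stretches of the gene.

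Among the 7 genes, *Fst* and *Inhba* were higher in the *Sox2-Tbx2LOF* pools, *Fst* by 1.46-fold and *Inhba* by 1.16-fold. No gene of the group passed the test with lower signal when each gene was represented by its brightest probe, although the dimmer of the 2 *Acvr2a* probes did. The test was limma's moderated test of the log2 ratio with the dye as a term, with Benjamini-Hochberg adjustment over all 21042 genes and a threshold of 0.05 for the adjusted p. In the whole tissue it passed 476 genes as higher and 615 as lower, which is 2.26% and 2.92% of the genes tested, or 5.18% in either direction. Thus 2 of 7 genes of the group passed, both of them higher. With the additional requirement of a 1.5-fold change, which 93 genes met (0.442%), no gene of the group was called. The call of *Inhba* depended on the handling of the dyes, as described with its values.

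**Figure D1:**
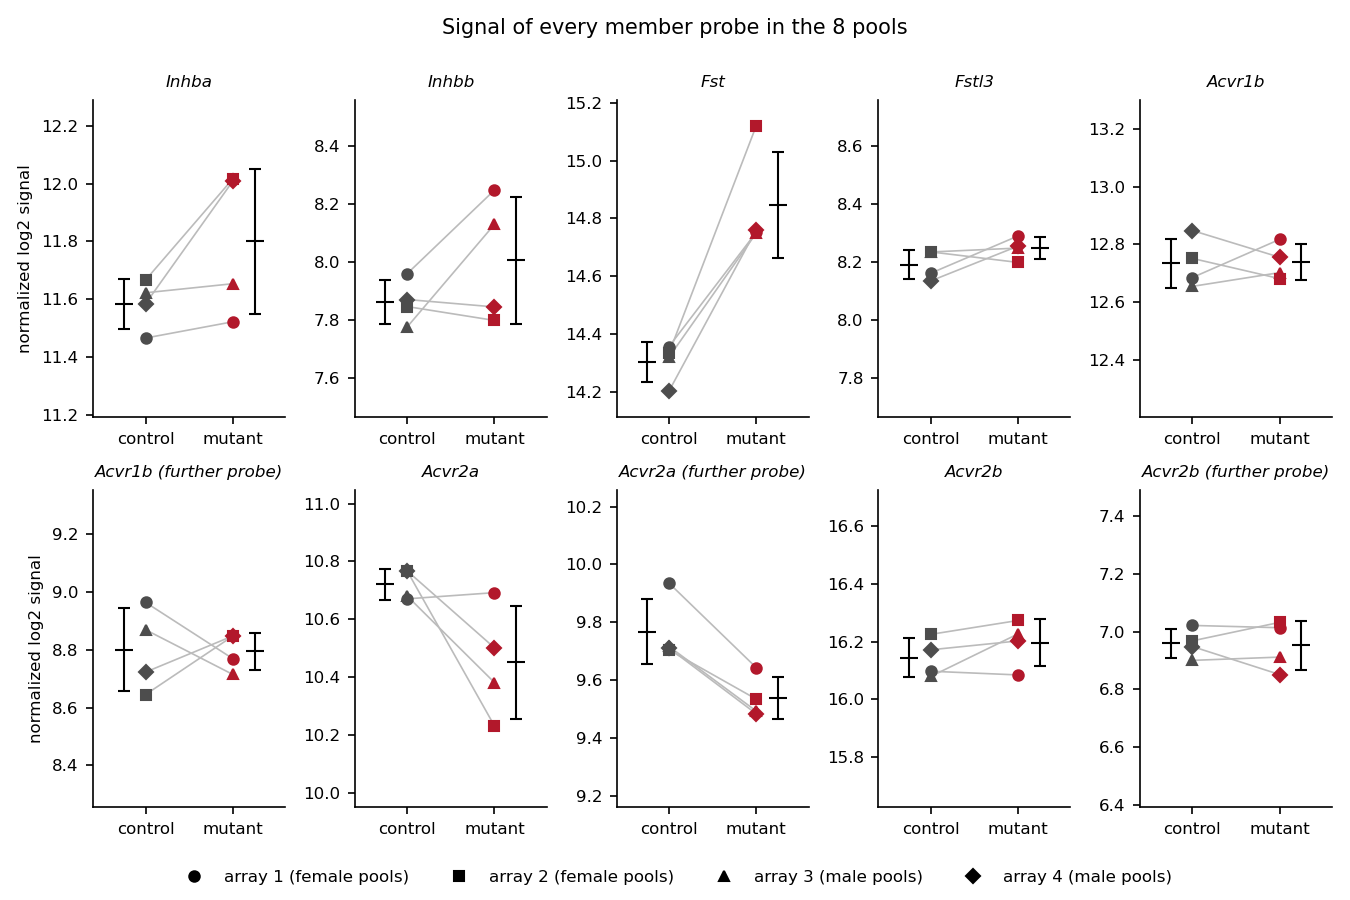
Normalized log2 signal (vertical axis, spanning the same number of log2 units in each panel) of the 10 probes in the 4 control and 4 mutant pools. Lines join the 2 pools hybridised to 1 array, marker shapes stand for arrays, and black bars are means ± SD (n = 4 pools). Only *Fst* and the further probe of *Acvr2a* have mutant and control pools that do not overlap. Among all genes by their brightest probe 4.27% did not overlap, and the share among all probes was not counted.

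*Fst* encodes follistatin, a secreted protein that binds activins with high affinity. Its normalized log2 signal in the mutant pools of arrays 1 to 4 was 14.75, 15.12, 14.75 and 14.76. The control pools of the same arrays gave 14.36, 14.33, 14.32 and 14.20. All mutant pools lay above all control pools, and the mutant pool of array 2 stood above the other three, which were nearly equal. Of 21042 genes, 899 (4.27%) had mutant and control pools that did not overlap, and *Fst* was the 1 member among them with its brightest probe. Mutant over control, the log2 ratios were 0.40, 0.79, 0.43 and 0.56 on arrays 1 to 4, with a mean of 0.54 ± 0.18 (SD, n = 4 arrays). The adjusted p was 0.000491 in limma, the standard error 0.044 and the 95% confidence interval 0.44 to 0.65 on the log2 scale. In the order of all mean ratios *Fst* was 33rd from the highest. The interval included the log2 value of 0.58 that corresponds to 1.5-fold, so that the mean was below this minimum while larger values lay within its error. Ratios were above 0 in both dye orientations, with a mean of 0.41 where the mutant was in Cy5 and 0.67 where it was in Cy3. They were also above 0 in both sexes, at 0.59 for female and 0.49 for male pools. Without array 2 the mean was 0.49 and the adjusted p 0.000227.

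*Inhba* encodes the beta A subunit, 2 copies of which form activin A. Its signal in the mutant pools was 11.52, 12.02, 11.65 and 12.01 on arrays 1 to 4. In the control pools it was 11.47, 11.67, 11.62 and 11.58. The mutant pools of arrays 2 and 4 lay above every control pool, whereas those of arrays 1 and 3 lay among the controls. The ratio was above 0 on 4 of 4 arrays, with log2 values of 0.056, 0.35, 0.031 and 0.42, a mean of 0.22 ± 0.20 (SD, n = 4) and an adjusted p of 0.0144 in limma (95% confidence interval 0.13 to 0.30). These values followed the dyes. The mean was 0.044 where mutant RNA was in Cy5 and 0.39 where it was in Cy3, and the fitted dye effect of −0.17 was larger in size than that of 91% of all genes tested. Since the dye orientation was balanced, it cancelled in the mean, but the call rested on its removal as a term of the fit. Without the dye term the adjusted p was 0.382 at the same mean ratio. It was 0.0888, 0.0811 and 0.0641 without array 1, 3 or 4, and 0.0207 without array 2.

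The ratio of *Fst* exceeded that of *Inhba* on each array, by 0.34, 0.44, 0.40 and 0.13 log2 units on arrays 1 to 4. The mean of this difference was 0.33 ± 0.13 (SD, n = 4). It is a difference between 2 ratios, each taken within its own probe, and says nothing about the relative abundance of the transcripts. Signals of different probes were not compared because each probe has its own brightness.

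Among the lists of cell type markers, only the neuronal list had most of its tested genes pass in the same direction. Of 11 tested neuronal markers 9 were lower and none higher, with a summed normalized signal of 49631 to 52769 in the mutant and 57867 to 60075 in the control pools; *Neurod1*, the only listed marker that was not tested, was well above background in no mutant and 2 control pools. Of 10 mesenchymal markers 1 was higher and 0 lower, with *Col1a1* at 0.27 ± 0.12. Their summed signal was 328098 to 350272 in the mutant and 296416 to 314421 in the control pools, with a median fold of 1.11 within arrays. Such sums weigh the brightest probes most. Here these were *Lum*, *Col1a2* and *Col3a1*, with mean mutant signals of 16.9, 16.4 and 16.0. They were named after their values were seen, and none of them passed. Glial markers were higher for 1 and lower for 2 of 8, with sums of 183665 to 213295 in the mutant and 187471 to 219305 in the control pools, higher in the mutant on 2 of 4 arrays. Of 11 prosensory markers 3 were higher and 3 lower, and their sums were 261858 to 298898 in the mutant and 245901 to 268144 in the control pools. Within arrays the mutant sum was the higher one on 4 of 4, with a median fold of 1.08. Of 9 markers of the cochlear epithelium 1 was higher and 1 lower, and their sum was also higher on 4 of 4 arrays, at a median fold of 1.04. Of 7 hair cell markers 1 was higher. None of 6 melanocyte, 6 endothelial and 7 blood markers passed, and their sums were higher in the mutant on 4, 3 and 2 of 4 arrays, with median folds of 1.03, 1.03 and 1.20. These shifts stand beside the ratios of *Fst*, *Inhba* and *Acvr2a*, and their part in them was not tested.

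*Inhbb*, which encodes the beta B subunit of activin B, had signals of 8.25, 7.80, 8.13 and 7.84 in the mutant pools. The control pools gave 7.96, 7.85, 7.78 and 7.87. Mutant pools of arrays 1 and 3 lay above all controls, and those of arrays 2 and 4 lay among them. The log2 ratios were 0.29, −0.048, 0.35 and −0.026, with a mean of 0.14 ± 0.21 (SD, n = 4). The adjusted p of 0.0599 in limma missed the threshold, and the 95% confidence interval was 0.062 to 0.22. As for *Inhba*, the values separated by dye, but in the other direction, with means of 0.32 for mutant RNA in Cy5 and −0.037 for mutant RNA in Cy3. When ratios were centred on the median of each array in place of loess normalization, *Inhbb* passed with a ratio of 0.18 and an adjusted p of 0.0469.

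**Figure D2:**
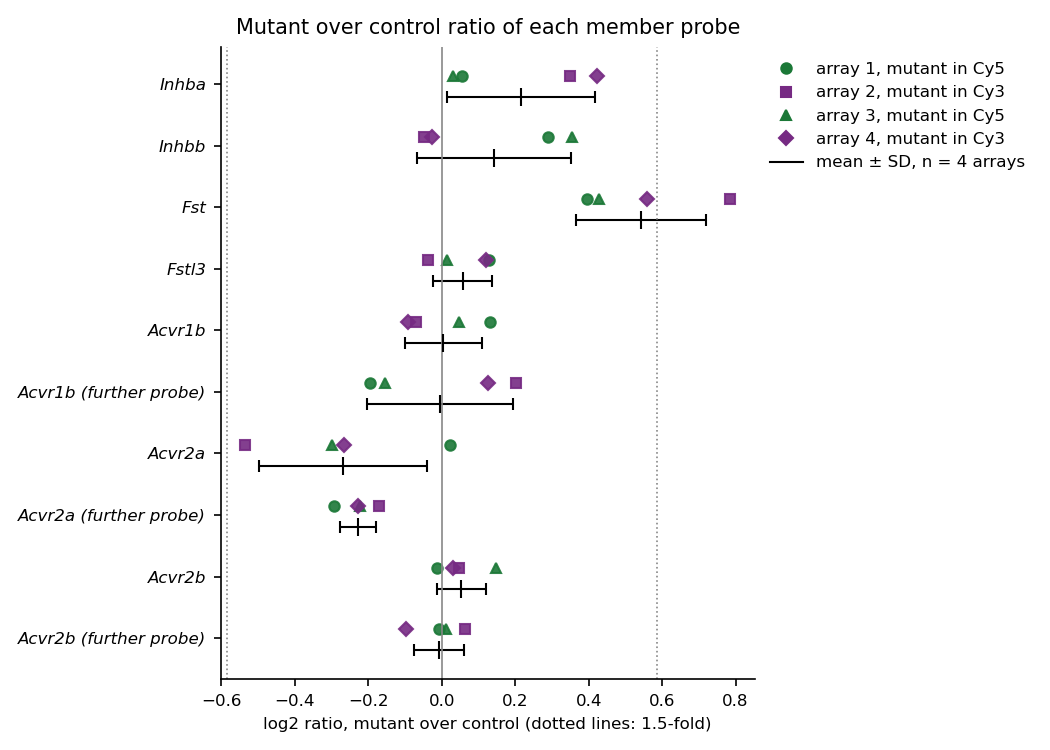
Log2 ratio of mutant over control (horizontal axis) of each member probe on the 4 arrays, coloured by the dye of the mutant RNA, with the mean ± SD below the points. *Fst* lies between 0.40 and 0.79 on all arrays, while both orientations of *Inhba* and *Inhbb* form separate pairs.

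*Fstl3* encodes a secreted relative of follistatin. Its signals lay between 8.20 and 8.29 in the mutant and between 8.13 and 8.24 in the control pools. The groups overlapped and the mean log2 ratio was 0.057 ± 0.081 (SD, n = 4), with an adjusted p of 0.513 in limma. The 95% confidence interval was −0.04 to 0.15.

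*Acvr1b*, the gene of the type I receptor ALK4, was measured by a pair of probes. The brighter one had a mean log2 ratio of 0.0043 ± 0.10 (SD, n = 4) with a 95% confidence interval of −0.077 to 0.086 and an adjusted p of 0.963. The dimmer one had −0.0056 ± 0.20 and an adjusted p of 0.956 in the fit of all 27963 probes tested, of which 1117 (3.99%) passed. On this dimmer probe the ratio was below 0 on both arrays with mutant RNA in Cy5 and above 0 on both others, a mean of −0.17 against 0.16. On the brighter probe the signs were opposite, 0.090 against −0.081.

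*Acvr2a* encodes a type II receptor that binds activins directly. Its brighter probe gave signals of 10.69, 10.23, 10.38 and 10.50 in the mutant pools. The control pools gave 10.67, 10.77, 10.68 and 10.77. Mutant pools of arrays 2, 3 and 4 lay below all controls, and that of array 1 lay among them. The log2 ratios were 0.021, −0.54, −0.30 and −0.27, with a mean of −0.27 ± 0.23 (SD, n = 4), a 95% confidence interval of −0.42 to −0.12 and an adjusted p of 0.0544 in limma, just above the threshold. The dimmer probe was measured at 9.64, 9.53, 9.49 and 9.48 in the mutant pools and at 9.94, 9.70, 9.72 and 9.71 in the control pools. Here all mutant pools lay below all control pools. The share of all probes without overlap was not counted, and among all genes by their brightest probe it was 4.27%. Its log2 ratios of −0.29, −0.17, −0.22 and −0.23 averaged −0.23 ± 0.05 (SD, n = 4), with an adjusted p of 0.0155 over the 27963 probes (95% confidence interval −0.31 to −0.14). Both probes thus had mean ratios below 0 of similar size, and the intervals overlapped. The gene passed as lower when the 2 probes were averaged, with a ratio of −0.25 and an adjusted p of 0.0107. The call of the dimmer probe was lost without array 1, 3 or 4, with adjusted p of 0.0969, 0.0676 and 0.0699. Without array 4 the brighter probe passed, with a fitted ratio of −0.34 and an adjusted p of 0.0201 in limma. In this fit array 2, with the lowest ratio, alone stood for mutant RNA in Cy3 and weighed as much as arrays 1 and 3 together.

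*Acvr2b*, the gene of the other type II receptor, had mutant signals of 16.08 to 16.27 and control signals of 16.08 to 16.22 on its brighter probe. The mean log2 ratio was 0.053 ± 0.068 (SD, n = 4), the 95% confidence interval −0.038 to 0.14 and the adjusted p 0.513. Its dimmer probe gave −0.0074 ± 0.067 and an adjusted p of 0.947 in the fit of all probes.

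**Figure D3:**
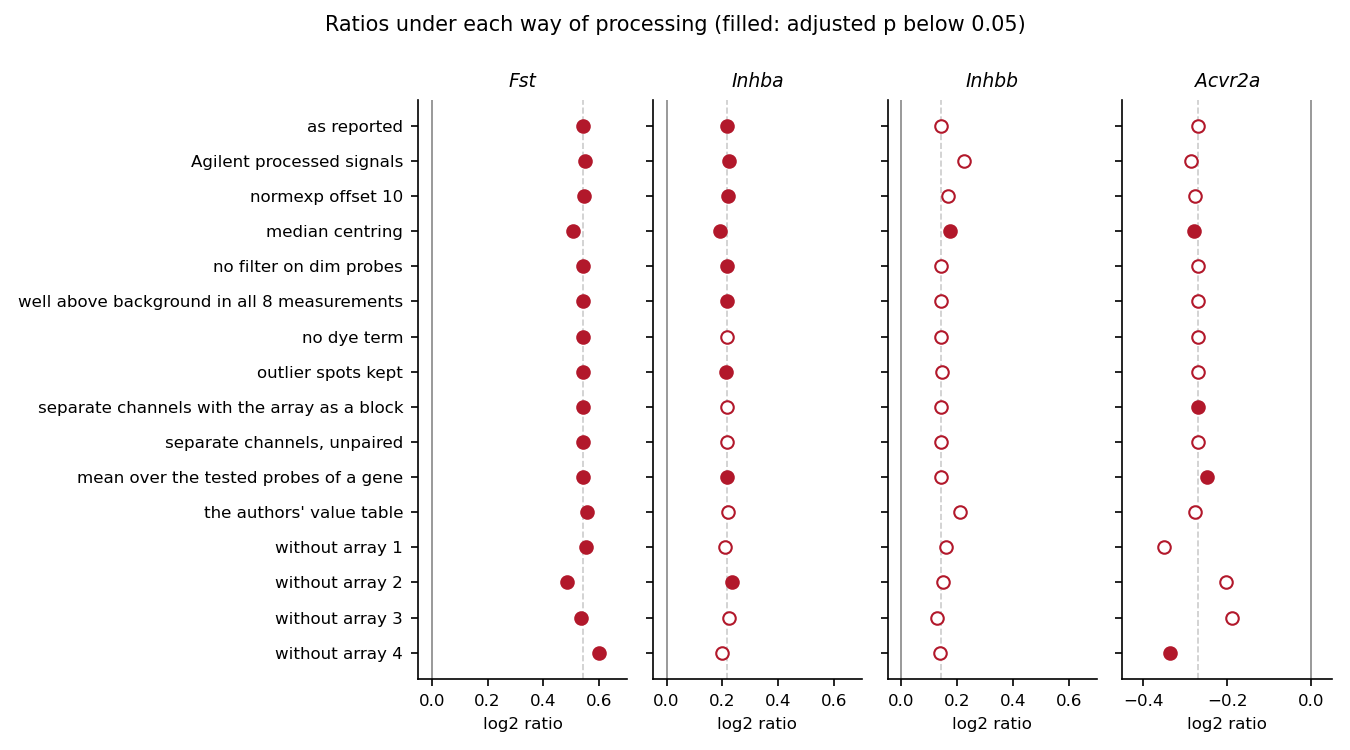
Log2 ratio of mutant over control (horizontal axis) of *Fst*, *Inhba*, *Inhbb* and *Acvr2a* under the processing reported here and 15 alternatives (rows). Filled circles have an adjusted p below 0.05, and dashed lines mark the reported ratio; *Fst* is filled in 15 of 15 alternatives, *Inhba* in 8, *Inhbb* in 1 and *Acvr2a* in 4.

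Female and male pools were compared because sex was known for each array. The ratio of male minus that of female arrays ranged over the 7 genes from −0.097 for *Fst* to 0.071 for *Acvr2b*. No member passed limma's test of this difference, and neither did any of the 21042 genes (0%). At an unadjusted p below 0.05 no member passed either, against 558 of all 21042 genes. The signal averaged over both pools of an array differed between male and female arrays by −0.13 for *Fst* and by at most 0.058 in size for the other 6 genes. Again no member passed limma's test, adjusted or not, against 8 genes of 21042 (0.038%) adjusted and 649 unadjusted. With shares this small over all genes, none of 7 genes passing says little about the group. With 2 arrays per sex the standard errors of the ratio differences were 0.083 to 0.13, and a p that missed the threshold does not show that the sexes were alike.

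The other genes of the pathway were described by lists of general knowledge. A list of 10 genes linked to progenitor state and the timing of differentiation was counted among these pathway lists, although they are not pathway members. Together the lists held 76 distinct genes, of which 68 were tested. Of these, 3 were higher and 4 lower, together 10.3% against 5.18% of all genes, and their median log2 ratio was 0.033 against 0.0024 for all genes. Among 12 tested ligands of the SMAD2/3 branch, *Tgfb2*, the gene of transforming growth factor beta 2, was lower on 4 of 4 arrays, at −0.31 ± 0.14 (SD, n = 4, adjusted p = 0.00225 in limma). Inhibin alpha, *Inha*, chosen after its values were seen because its product pairs with the beta subunits to form inhibin, had a ratio of 0.071 ± 0.31 and an adjusted p of 0.356. Among 8 tested binding proteins and co-receptors, *Ltbp1*, which encodes a latent TGF-beta binding protein of the matrix, was higher on 4 of 4 arrays at 0.22 ± 0.098 (adjusted p = 0.0166). Its call held in 7 of 15 alternatives, and with averaged probes the ratio was 0.14 and the adjusted p 0.0584. None of 4 proprotein convertases, the enzymes that cleave ligand precursors, and none of 9 further receptors of the superfamily passed.

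Downstream of the receptors, 1 of 15 SMADs and intracellular regulators passed. *Smad2*, which encodes an effector of activin receptors, had a mean of −0.20 ± 0.41 (SD, n = 4, adjusted p = 0.0398), but its ratio was below 0 on 2 arrays and above 0 on 2. Of 12 tested genes known to respond to activin or TGF-beta, 2 were higher and 1 lower. *Ctgf*, the gene of a secreted matricellular protein, had the largest ratio of all pathway genes at 0.63 ± 0.22 (adjusted p = 0.000933), higher on 4 of 4 arrays. *Cdkn1a*, which encodes the cell cycle inhibitor p21, was higher at 0.25 ± 0.036 (adjusted p = 0.00722), and *Thbs1*, the gene of thrombospondin 1, lower at −0.22 ± 0.089 (adjusted p = 0.0291). Other genes of this list, among them *Smad7*, *Skil* and *Pmepa1*, named after their values were seen, did not pass. The ratios of these examples were −0.078, −0.042 and −0.0034. Of 10 genes linked to progenitor state and the timing of differentiation, *Ccnd1*, the gene of cyclin D1, was lower at −0.33 ± 0.14 (adjusted p = 0.0103) and the other 9 did not pass. When arrays were left out in turn, *Ctgf* and *Tgfb2* passed each time. *Ltbp1*, *Cdkn1a* and *Ccnd1* missed the threshold without array 1 and without array 3, *Smad2* without array 1, 3 or 4, and *Thbs1* without array 3 or 4. The number of genes of the pathway lists that passed was 3 without array 1 and 2 without array 3.

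**Figure D4:**
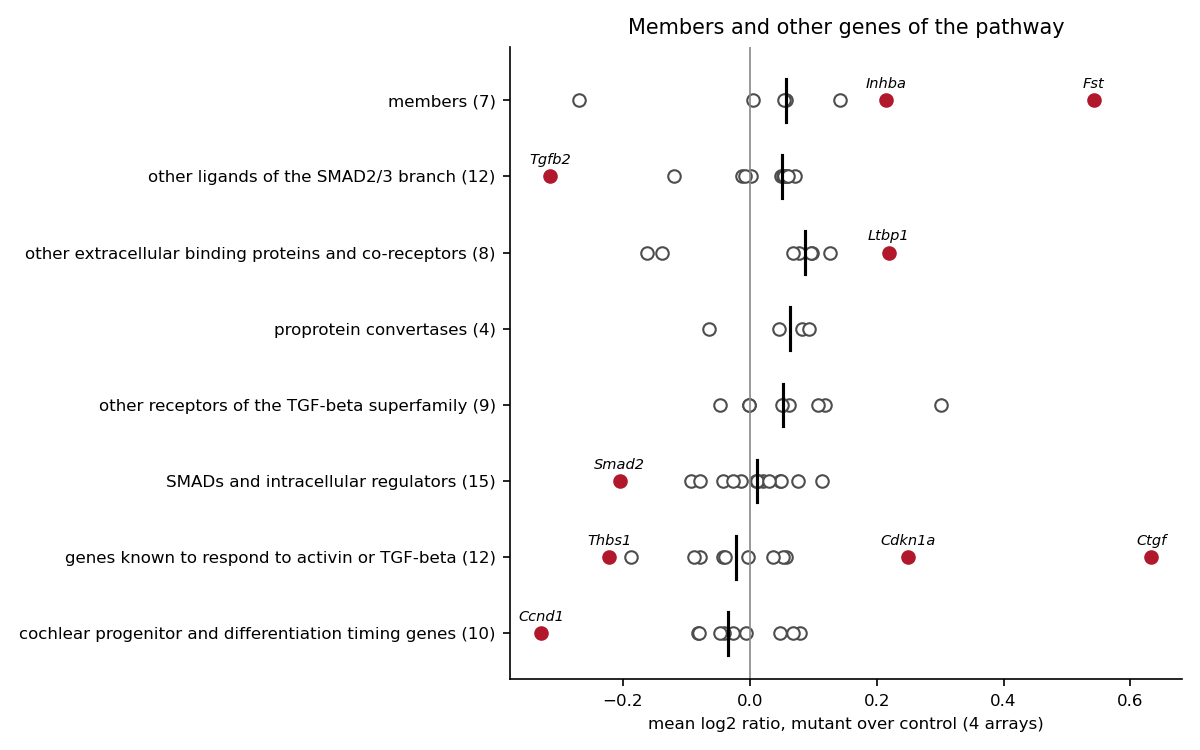
Mean log2 ratio of mutant over control (horizontal axis, 4 arrays) of the 7 members and of the tested genes of 7 pathway lists, with the number of genes in brackets. Filled and named points passed the test, open points did not, and black ticks are list medians; *Fst* and *Ctgf* lie farthest to the right.

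For each member that passed, the 3 genes with the most similar signal over the 8 pools were found by Pearson correlation after centring each dye, as a description. Pools on an array share its hybridisation. For *Fst* these were *Samd9l* (r = 0.993), *Pgm5* (r = 0.992) and *Hey2* (r = 0.98). Their log2 ratios were 0.35, 0.61 and 0.36. The 8 pools include the difference between genotypes, so that genes chosen for likeness to *Fst* share its direction by construction. *Hey2* encodes a transcriptional repressor of the Hes and Hey family known from prosensory progenitors. For *Inhba* they were *Sbsn* (r = 0.996), *Galr3* (r = 0.995) and 1700026L06Rik (r = 0.992), none of which passed, with ratios of 0.097, 0.027 and 0.10.

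The genotype labels were checked with *Tbx2*, whose ratio was below 0 on 4 of 4 arrays at −0.12 ± 0.098 (SD, n = 4, adjusted p = 0.124 in limma). Whether its probe lies in the deleted part of the gene was not annotated, so it does not settle the labels. The CreERT2 fusion contains part of an oestrogen receptor. The probe of *Esr1*, a mouse oestrogen receptor gene, was well above background in 4 of 4 mutant pools and in 0 of 4 control pools (adjusted p = 5.96e-06 in limma). Whether it captured the fusion transcript or that of the mouse gene was not tested. *Sox2* had a ratio of 0.012 ± 0.18 (adjusted p = 0.935). Medians of the unprocessed spot brightness ranged from 263 to 292 in Cy3 and from 496 to 563 in Cy5 over the arrays, and no gene spot was saturated. Ratios of arrays with the same dye orientation correlated across genes at 0.68 and 0.62, and those of opposite orientation between −0.10 and 0.071.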

How the data were processed

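RNA of cochlear ducts from E14.5 embryos was hybridised to 4 two-colour arrays, each with 1 *Sox2-Tbx2LOF* and 1 control pool. Groups, sexes and dyes were taken from the sample labels. The authors deposited the output of Agilent Feature Extraction 10.7.3.1 (version as in the submitters' processing notes), which gives the mean intensity of each spot and the median intensity of its local background, not normalized, and processed intensities with the background subtracted and the dyes normalized. Also deposited was a value table holding a score per probe and array, which matched the fold of mutant against control written with a sign; how the authors normalized these scores is not given in the sources used here, every column had a median of 1, and their log2 values correlated with the ratios computed here at 0.916 to 0.943 across 21042 probes. The array design named in the file headers differs from that in the methods, and the names and mm9 positions of probes were those of the files.

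Background was corrected with limma 3.58.1 in R 4.3.3 (normexp, offset 50), followed by loess within each array, in which control spots and spots with an outlier flag had weight 0. The 4 spots of a probe were averaged without the spots that carried such a flag. A probe entered the test if at least 4 of 8 channel measurements were well above background, as 27963 of 39429 were, and each gene was represented by its brightest probe. A signal is the normalized log2 value of 1 channel after Aquantile normalization between arrays. Ratios were fitted with limma (lmFit and eBayes) with terms for genotype and dye, leaving 2 residual degrees of freedom besides the prior of 5.65, and p-values were adjusted by Benjamini-Hochberg over all genes or all probes tested. Both pools on an array are paired by the hybridisation. Pools are independent samples per the methods, and their number limits the precision. The steps were tested on simulated data, where the share of false calls lay near the nominal one with gene variances drawn from the fitted prior and clearly above it with the variances fitted for each gene, so adjusted p-values close to the threshold may be too small.

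All members with every probe were named, of each pathway list at most the 4 largest changes that passed, and for each member that passed the 3 genes most alike. Marker genes that passed were mostly given as counts and not named. Members and lists were chosen with earlier results of these data known. Lists were described by counts and medians without a set test. Alternatives were other signals, offsets, centring, filters, dye and pairing terms, probe averages, the value table and leaving out each array. Ratios without an array are coefficients of the fit with the dye term and not plain means. In them the only array left in its dye orientation weighs as much as both arrays of the other orientation. The E18.5 arrays of the study were not analysed here.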

Additional observations from a re-analysis of the deposited data

Results flagged for a closer look

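In 2 of 30 groups of 4 values (levels in mutant pools, levels in control pools and ratios of the 10 probes), 1 value stood apart from the other three by Dixon's test at the 95% level. At this level chance alone flags about 5% of such groups. For *Fst*, the mutant pool of array 2 was the highest, at a log2 signal of 15.12 against 14.75 to 14.76 in the others, and the gap was 0.968 of the whole range. For the dimmer probe of *Acvr2a*, the control pool of array 1 was the highest, at 9.94 against 9.70 to 9.72, a gap of 0.948 of the range. Without these arrays the log2 ratios fitted with the dye term were 0.49 for *Fst* (adjusted p = 0.000227 in limma) and −0.21 for the *Acvr2a* probe (adjusted p = 0.0969).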

How the results depend on the processing

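*Fst* was higher and passed in each of 15 alternatives, with log2 ratios of 0.49 to 0.60 and adjusted p from 5.2e-06 to 0.0232. It reached 1.5-fold in 1 of them, the fit without array 4. There array 2, with the highest *Fst* ratio, alone stood for mutant RNA in Cy3 and weighed as much as arrays 1 and 3 together. *Inhba* kept its direction in 15 alternatives (0.19 to 0.23) and passed in 8, with adjusted p from 0.0113 to 0.862; it also missed the threshold with separate channels and the array as a block (0.0504), with unpaired channels (0.862) and in the authors' value table (0.0645). *Acvr2a* stayed lower (−0.35 to −0.19) and passed in 4, with adjusted p from 0.0107 to 0.384, namely with median centring, with the array as a block, with averaged probes and without array 4. Its dimmer probe no longer passed with Agilent's processed signals (−0.25, adjusted p = 0.052), without the dye term (−0.23, adjusted p = 0.078) or, with ratios of −0.25 to −0.21, without array 1, 3 or 4. *Inhbb* ratios ran from 0.13 to 0.22 with adjusted p from 0.0469 to 0.969. *Fstl3*, *Acvr1b* and *Acvr2b* passed in none. The number of members that passed was 4 with median centring, where 1177 of all 21042 genes passed. It was 1 without the dye term, 1 with unpaired channels, 1 in the authors' value table and 1 to 2 when 1 array was left out.

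Over all genes, 1091 passed as reported, 616 with Agilent's processed signals, 264 without the dye term, 195 with unpaired channels, 414 in the value table and 411 to 1278 without 1 array. Genes called at 1.5-fold were 93 as reported, 169 with Agilent's processed signals and 141 in the value table. Of the pathway lists 7 genes passed as reported, 4 with Agilent's signals, 2 without the dye term, 2 with unpaired channels, 3 in the value table and 2 to 9 without 1 array. Neuronal markers that passed fell from 9 to 2 with unpaired channels. The alternatives for the pathway and neuron lists were chosen after seeing the data. The causes were not tested. No fit with slide or scan as a term was run, since all arrays shared 1 slide and scan. Signals close to background are compressed by the offset, which limits ratios of dim probes.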
